A study of Homo sapiens
Mus musculus and Mus musculus and Homo sapiens with 16 samples.

Results

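Genes that take up, store, sense and export iron or that make and move heme were followed in MS-5 cells, a stromal cell line from mouse bone marrow, cultured alone or with human mantle cell lymphoma cells. The 10 genes were Tfrc, Slc11a2, Slc40a1, Slc48a1, Fth1, Ftl1, Ireb2, Aco1, Alas1 and Fech, of 49671 mouse genes in the count table. They were taken by symbol, and they were chosen with the difference between MS-5 cells in coculture and MS-5 cells alone already known, so their values in that comparison are given as a description with no test. All 10 passed the filter on low counts that left 12201 mouse genes for testing.

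The data were RNA-seq counts per gene in 16 libraries, 4 per group. MS-5 cells without lymphoma cells formed the group MS-5 alone. Cells of REC-1, a mantle cell lymphoma line, were kept without stroma (Sep), collected from the suspension above MS-5 cells (Susp) or collected while adhered to MS-5 cells (Adh). The Adh libraries held RNA of both species, so that their mouse counts gave MS-5 cells in coculture and their human counts gave adherent REC-1 cells. Each line was a single cell line, and the sources used here name no added allele. All groups shared an αMEM medium with fetal bovine serum. MS-5 cells were plated 24 h ahead, and RNA was taken 24 h after the cultures were set up. The study describes the lymphoma RNA-seq replicates as independent experiments, while the sources used here do not say so of MS-5 cells alone. The p-values set a group difference against the spread estimated from these libraries.

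Iron enters most cells as transferrin that is bound by the transferrin receptor and taken into endosomes. It leaves the endosome through a divalent metal transporter, is stored inside ferritin shells, and leaves the cell through ferroportin. Iron regulatory proteins bind a short RNA hairpin, the iron-responsive element, when iron is scarce. Bound near the start of an mRNA they block its translation, and bound in the 3′ UTR of the transferrin receptor mRNA they protect it from decay. Heme is built around iron in mitochondria and is broken down by heme oxygenase.

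The iron-responsive elements matched by a search of mouse UTRs are shown. They divide the matching members into those with a match ahead of the coding sequence and Tfrc, whose matches lie behind it. The search took a C, 5 bases, the 6-base loop that starts with CAGTG, and 5 bases pairing with the first 5, with G to U pairs allowed and at least 3 pairs among the 5 bases on either side. Only the sense strand of annotated UTRs was read, in GENCODE M21 transcripts of the mouse build GRCm38. Capitals mark the first 5 bases of the loop. The elements of Fth1 (chr19:9982733-9982759, plus strand), Ftl1 (chr7:45459780-45459806, minus strand) and Slc40a1 (chr1:45925466-45925492, minus strand) lie in exons of the 5′ UTR:
Fth1: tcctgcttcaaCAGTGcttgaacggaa
Ftl1: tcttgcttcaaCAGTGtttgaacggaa
Slc40a1: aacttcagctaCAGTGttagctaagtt
The 4 elements matched in Tfrc lie in the 3′ UTR exon on the plus strand, at chr16:32631220-32631246, chr16:32631599-32631625, chr16:32631664-32631690 and chr16:32631711-32631737:
Tfrc element 1: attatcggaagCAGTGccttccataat
Tfrc element 2: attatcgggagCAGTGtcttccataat
Tfrc element 3: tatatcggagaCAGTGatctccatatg
Tfrc element 4: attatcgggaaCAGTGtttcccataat
Of the 20916 mouse genes with an annotated 5′ UTR, 9 (0.043%) held a match there, and of the 21039 genes with a 3′ UTR, 36 (0.171%) did. Among the 10 genes, 3 matched in the 5′ UTR and 1 in the 3′ UTR. A match describes the letters only, and its absence in the other members, Slc11a2 among them, says only that these letters are not in the annotated UTRs. Elements of another form would be missed, in Tfrc as well, so the matches are not a full list.

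Mouse counts ranged from 10097555 to 17397651 per library in MS-5 cells alone and from 29495404 to 34615602 in the Adh libraries, so depth and group cannot be told apart in the counts as deposited. Human counts made up 18.3% to 28.2% of the counts of both species in Adh libraries. The summed level of 9 stromal markers was 9015 to 9895 CPM (counts per 1000000 counts, on TMM-scaled library sizes) in MS-5 cells alone and 8822 to 10062 CPM in coculture. More than any other marker, Vim made up this sum, at 4798 to 5230 CPM alone and 4662 to 5370 CPM in coculture. Single markers differed, with Acta2 at 759 to 942 CPM alone and 564 to 602 CPM in coculture and Cxcl12 at 279 to 394 CPM alone and 383 to 521 CPM in coculture. Over 6 B cell genes, the mouse counts of the Adh libraries were 0 to 2 per gene, at most 0.0171% of the human counts of the same gene. Macrophage markers summed to 5.02 to 6.37 CPM in MS-5 cells alone and 5.43 to 7.98 CPM in coculture, and erythroid markers, among them the globins, to at most 0.374 CPM in any library.

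Of the 10 genes, 9 had a lower mean in coculture than alone and 1, Ireb2, a higher one. The log2 fold changes ran from −0.57 to 0.12 with a median of −0.14, beside a median of −0.00165 over all 12201 genes tested. The 4 libraries of each group did not overlap for 4 of the 10 genes, Tfrc, Slc48a1, Fth1 and Slc11a2, each lower in coculture. Across all genes tested, 6.74% had groups that did not overlap. The members were chosen on this comparison, so nothing is read from these counts. In bulk RNA, fewer cells of a kind and less RNA per cell cannot be told apart.

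**Figure D1:**
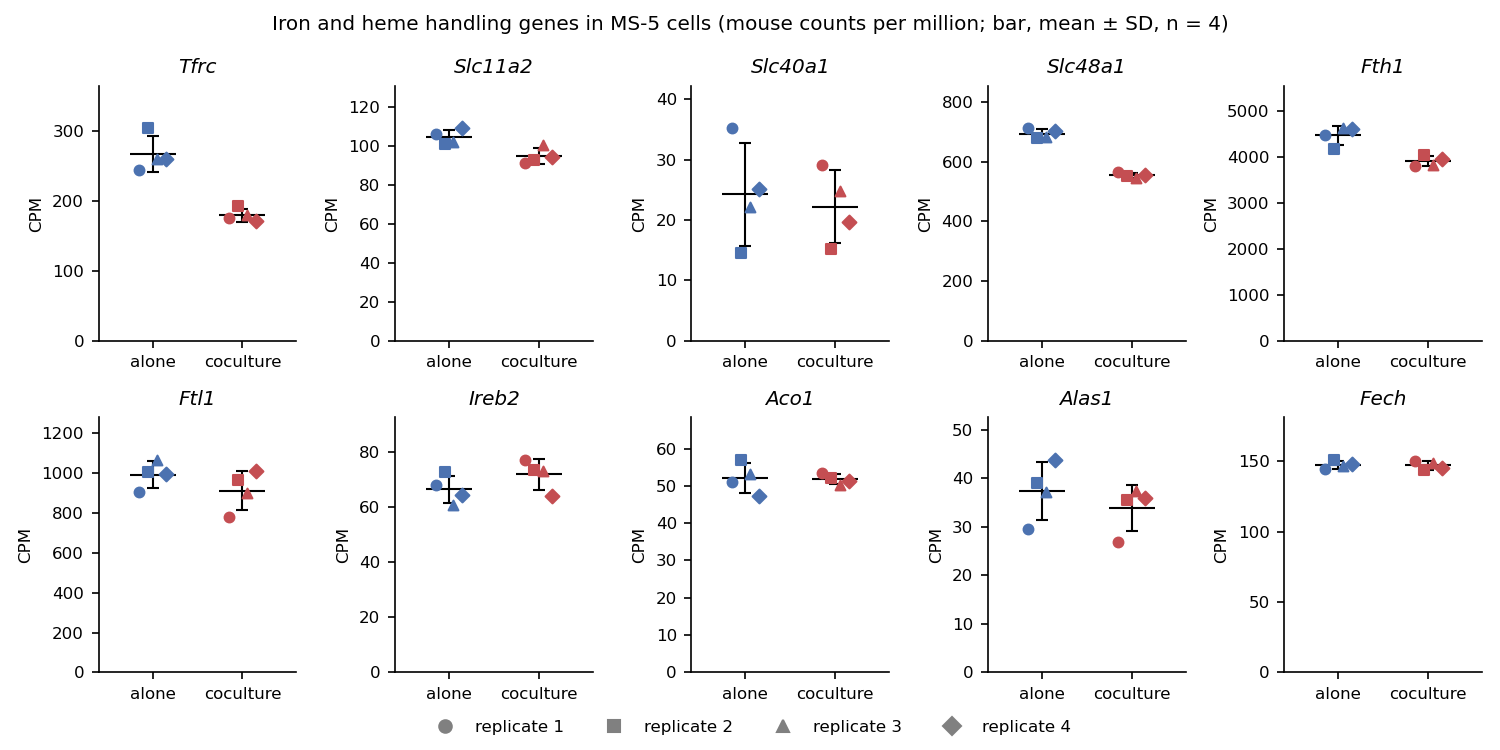
CPM of the 10 iron and heme genes in each MS-5 library (y axes from 0), alone (blue) and in coculture (red), with the mean ± SD over 4 libraries as bars and the replicate number as the point shape. The 4 coculture libraries lie below the 4 libraries of cells alone for Tfrc, Slc48a1, Fth1 and Slc11a2, while the groups overlap for the other 6 genes.

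Of the genes of iron entry, Tfrc (ENSMUSG00000022797, GRCm38 chr16:32608920-32632794), which encodes the transferrin receptor, had the largest difference. Tfrc was at 244, 303, 259 and 259 CPM in MS-5 alone replicates 1 to 4 and at 175, 193, 179 and 171 CPM in coculture replicates 1 to 4. Every coculture library was below every library of cells alone, and replicate 2 was the highest in both groups. The means were 266 ± 25.4 CPM (SD, n = 4) alone and 179 ± 9.33 CPM (SD, n = 4) in coculture, a log2 fold change of −0.57 (SE 0.07), or 1.48-fold lower. With the counts thinned to the smallest library the log2 fold change was −0.59. The part of depth in the difference was not tested beyond this.

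Slc11a2 (ENSMUSG00000023030, chr15:100387898-100425072) encodes the divalent metal transporter DMT1, which moves iron out of endosomes. It was at 106, 101, 102 and 109 CPM in MS-5 alone replicates 1 to 4 and at 91.3, 92.5, 101 and 94.1 CPM in coculture replicates 1 to 4. The groups only just did not overlap, because the highest coculture library (100.7 CPM) was next to the lowest library of cells alone (100.8 CPM). The log2 fold change was −0.14 (SE 0.06).

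Slc40a1 (ENSMUSG00000025993, chr1:45908068-45926523) encodes ferroportin, the iron exporter, and was the most variable of the 10. It was at 35.2, 14.5, 22.2 and 25.2 CPM in MS-5 alone replicates 1 to 4 and at 29.1, 15.2, 24.8 and 19.7 CPM in coculture replicates 1 to 4. The groups overlapped almost entirely, and in both of them replicate 1 was the highest and replicate 2 the lowest. The coefficient of variation was 35.1% alone and 27.2% in coculture, against 1.498% to 15.8% for the other members over both groups. The log2 fold change of −0.14 was smaller than its SE of 0.22.

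Slc48a1 (ENSMUSG00000081534, chr15:97778520-97792692) encodes HRG1, which carries heme out of endosomes and lysosomes into the cytosol. Its levels were 711, 679, 683 and 702 CPM in MS-5 alone replicates 1 to 4 and 567, 554, 547 and 555 CPM in coculture replicates 1 to 4. This gene had the tightest libraries of the 4 that did not overlap, with a coefficient of variation of 2.25% alone and 1.498% in coculture. The means were 694 ± 15.6 CPM (SD, n = 4) alone and 555 ± 8.32 CPM (SD, n = 4) in coculture, a log2 fold change of −0.32 (SE 0.04) or 1.25-fold lower.

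The 2 ferritin subunits were the most abundant members. Fth1 (ENSMUSG00000024661, chr19:9980598-9985098), the heavy chain, which oxidizes iron on its way into the shell, was at 4478, 4177, 4613 and 4607 CPM in MS-5 alone replicates 1 to 4 and at 3808, 4033, 3811 and 3954 CPM in coculture replicates 1 to 4. Its groups did not overlap, and its log2 fold change was −0.20 (SE 0.04), or 1.145-fold lower. Fth1 alone made up 0.416% to 0.458% of all mouse counts in MS-5 cells alone and 0.383% to 0.402% in coculture.

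Ftl1 (ENSMUSG00000050708, chr7:45457944-45459884), the light chain, was at 902, 1004, 1065 and 993 CPM in MS-5 alone replicates 1 to 4 and at 779, 963, 897 and 1008 CPM in coculture replicates 1 to 4. Replicate 1 was the lowest library in both groups, and coculture replicate 4 was above 3 of the 4 libraries of cells alone. The log2 fold change was −0.12 (SE 0.07). Fragments that mapped to more than 1 place had been discarded, so ferritin counts are uncertain where pseudogenes share sequence. Of the 8 mouse genes named as ferritin pseudogenes, Ftl1-ps1, which is annotated as protein-coding despite its name, had 267 to 913 counts per library. The others had at most 10.

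Ireb2 (ENSMUSG00000032293, chr9:54863789-54912530) encodes iron regulatory protein 2. It was at 68.1, 72.8, 60.9 and 64.5 CPM in MS-5 alone replicates 1 to 4 and at 77.3, 73.5, 73.2 and 64.2 CPM in coculture replicates 1 to 4. Coculture replicates 1 to 3 were above all libraries of cells alone, while coculture replicate 4 lay among them, and the log2 fold change was 0.12 (SE 0.07). Aco1 (ENSMUSG00000028405, chr4:40143081-40198338), which encodes iron regulatory protein 1 and cytosolic aconitase, spanned 47.3 to 56.9 CPM alone and 50.3 to 53.3 CPM in coculture, with a log2 fold change of −0.00799 (SE 0.07).

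Alas1 (ENSMUSG00000032786, chr9:106233455-106248654) encodes the enzyme of the first step of heme synthesis in cells other than erythroid ones. It was at 29.5, 38.9, 37.1 and 43.7 CPM in MS-5 alone replicates 1 to 4 and at 26.8, 35.6, 37.3 and 35.9 CPM in coculture replicates 1 to 4. Replicate 1 was the lowest in both groups, the groups overlapped, and the log2 fold change was −0.14 (SE 0.12). Fech (ENSMUSG00000024588), whose enzyme ferrochelatase inserts iron into the heme ring, was among the steadiest members, at 144 to 151 CPM alone and 144 to 150 CPM in coculture, with a log2 fold change of −0.00533 (SE 0.05).

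**Figure D2:**
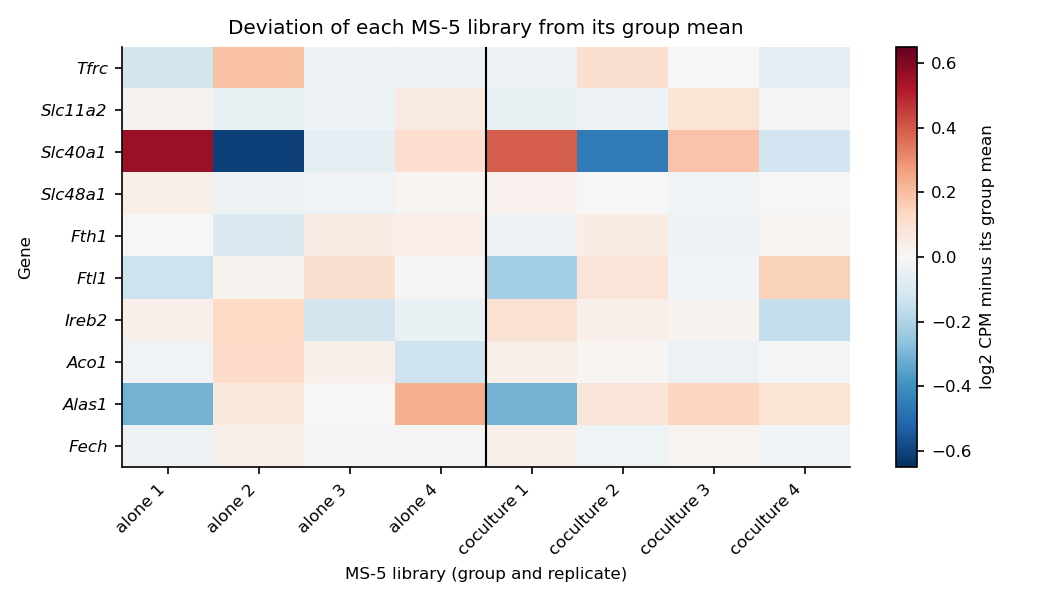
Log2 CPM of each MS-5 library (columns) minus the mean of its group, for the 10 genes (rows), from blue for below to red for above the mean. Slc40a1 in replicate 1 lay 0.56 above its group mean alone and 0.40 above it in coculture, and in replicate 2 it lay at −0.61 and −0.46, while Alas1 in replicate 1 lay at −0.31 in both groups.

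The deviations from the group mean followed the replicate number in a few members rather than in all of them. For Slc40a1, the log2 level of replicate 1 was 0.56 above the mean alone and 0.40 above it in coculture, and that of replicate 2 was −0.61 and −0.46 relative to the mean. For Alas1 the values of replicate 1 were −0.31 in both groups, and for Ftl1 they were −0.13 and −0.22. Slc48a1 and Fech stayed within 0.04 of their group means in every library. The labels do not say what the number marks.

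Ratios of counts within a library need no scaling between libraries. There were 5.45, 7.25, 5.62 and 5.62 Tfrc counts per 100 Fth1 counts in MS-5 alone replicates 1 to 4 and 4.59, 4.78, 4.70 and 4.34 in coculture replicates 1 to 4. The ratio of Tfrc to Ireb2 was 4.005 ± 0.295 (SD, n = 4) alone and 2.5 ± 0.185 (SD, n = 4) in coculture. Neither of these ratios overlapped between the groups. The ratio of Fth1 to Ftl1 was 4.52 ± 0.354 (SD, n = 4) alone and 4.31 ± 0.410 (SD, n = 4) in coculture, and the ratio of Aco1 to Ireb2 was 0.785 ± 0.0630 (SD, n = 4) and 0.722 ± 0.0531 (SD, n = 4), both with overlapping groups. These ratios use values of the comparison the members were chosen on and were not tested.

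**Figure D3:**
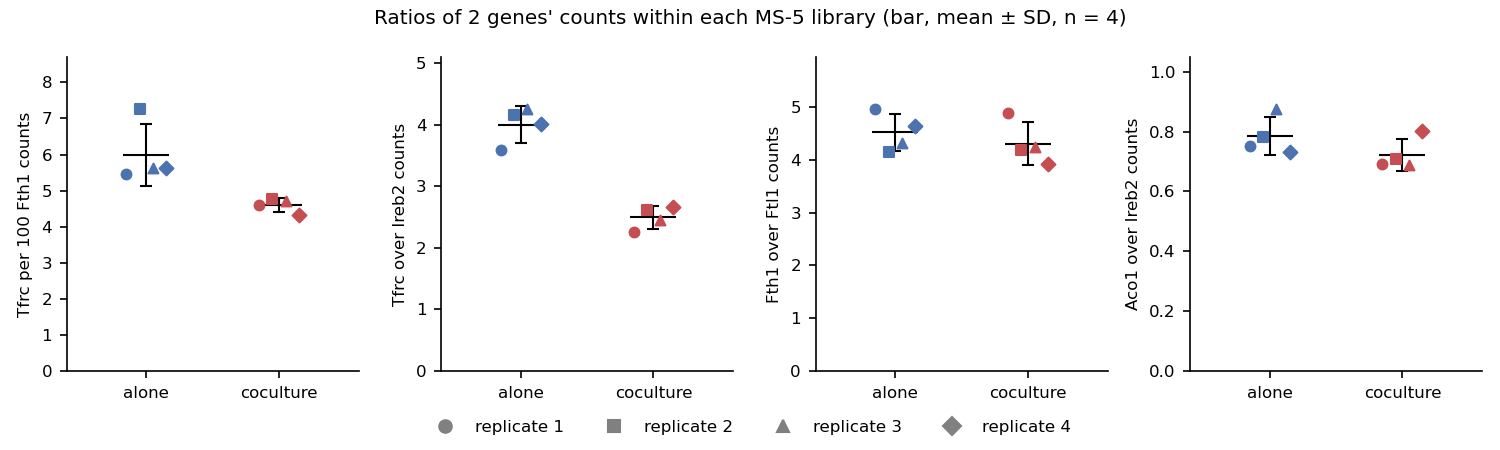
Ratio of the counts of 2 genes within each MS-5 library (y axes from 0), alone (blue) and in coculture (red), with the mean ± SD over 4 libraries and the replicate number as the point shape. Tfrc relative to Fth1 and to Ireb2 was lower in all 4 coculture libraries, and the ratios within the ferritin pair and within the pair of iron regulatory proteins overlapped.

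Levels were compared between genes per length, as RPKM over the union of annotated exons, which understates genes with many rarely used exons. In MS-5 cells alone the order was Fth1 (1288 RPKM), Ftl1 (740 RPKM), Slc48a1 (252 RPKM), Tfrc (43.1 RPKM), Slc11a2 (16.4 RPKM), Aco1 (11.6 RPKM), Fech (10.7 RPKM), Ireb2 (7.02 RPKM), Alas1 (6.04 RPKM) and Slc40a1 (2.70 RPKM), each a mean of 4 libraries. The neighbours Aco1 and Fech overlapped, as did Ireb2 and Alas1, and the other neighbours did not. In coculture the order was the same, from Fth1 at 1125 RPKM to Slc40a1 at 2.47 RPKM, and no pair of neighbours overlapped.

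Over the 8 MS-5 libraries, 3 genes had log2 CPM most like that of Tfrc among 8734 genes with a mean of at least 10 CPM in both groups. They were Pla2g4a, a cytosolic phospholipase A2 (Pearson's r = 0.99), Serpinb9b, a serine protease inhibitor (r = 0.98), and Itgb7, the integrin beta 7 chain (r = 0.98). All 3 were lower in coculture, with Pla2g4a going from a mean of 83.9 to 65.9 CPM, Serpinb9b from 47.6 to 33.2 CPM and Itgb7 from 17.7 to 11.1 CPM. The r values include the distance between the groups, since the 8 points share 2 groups and 2 ranges of depth.

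The other genes of iron and heme handling were not used to choose the members. Their list, Hmox1 included, was drawn up with earlier results of these data known, so its calls are not independent of those results. Of 79 such genes, 77 were found in the table by symbol and 60 were tested with edgeR's quasi-likelihood test. A gene was called where it differed by at least 1.5-fold at an adjusted p of no more than 0.05. One gene, Hmox1, was called lower in coculture and 0 were called higher. Of all 12201 genes tested, 0.205% were called, 0.164% lower and 0.041% higher. Without an adjustment, 7 of the 60 genes had p below 0.05, and DESeq2 called 1 lower and 0 higher with 7 genes below 0.05. These 11.7% stand beside 11.3% of all genes tested by edgeR and 11.1% by DESeq2. The median log2 fold change of the 60 genes was 0.00999, beside −0.00165 over all genes tested, with 29 lower and 31 higher.

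Hmox1, which encodes the inducible heme oxygenase that opens the heme ring and frees its iron, was at 297, 301, 275 and 246 CPM in MS-5 alone replicates 1 to 4 and at 179, 170, 134 and 138 CPM in coculture replicates 1 to 4. The groups did not overlap, and the log2 fold change was −0.85 (SE 0.09, edgeR adjusted p = 0.000264). Hmox2, the constitutive heme oxygenase, was at 57.9 ± 4.96 CPM (SD, n = 4) alone and 62.1 ± 0.228 CPM (SD, n = 4) in coculture, a log2 difference of 0.10 (SE 0.07, edgeR adjusted p = 0.625). The biliverdin reductases act after heme oxygenase. Blvra did not overlap between groups, at 34.8 to 43.2 CPM alone and 44.03 to 49.0 CPM in coculture, but did not pass the test (log2 fold change 0.22, SE 0.08, edgeR adjusted p = 0.241). For Blvrb the log2 difference was −0.14 (SE 0.09, edgeR adjusted p = 0.620), and it lay between −0.24 without replicate 2 and −0.02 without replicate 3. Flvcr1, a heme exporter, was also fixed as a gene to name but has no values here.

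Across the groups of the list, 0 of 7 tested genes of iron uptake and transport, 0 of 5 of ferritin and cytosolic iron handling, 0 of 3 of iron control, 0 of 20 of mitochondrial iron and iron-sulfur clusters and 0 of 11 of heme synthesis were called by edgeR, against 1 of 14 of heme breakdown, export and sensing. Of the 60 genes, 5 had groups that did not overlap, 8.33% beside 6.74% of all genes tested. Beside Hmox1 and Blvra, these were Steap1, Abcg2 and Hfe. Steap1, a gene of the STEAP family, had a log2 fold change of −0.24 (SE 0.07). The log2 fold change was 0.13 (SE 0.06) for Abcg2, an exporter that carries porphyrins, and 0.65 (SE 0.19) for Hfe, a partner of the transferrin receptor. Steap1, Abcg2 and Hfe are named after their values were seen. None of the 3 passed the test, with edgeR adjusted p = 0.168, 0.382 and 0.168, and Hfe was only at 2.09 CPM alone and 3.26 CPM in coculture.

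Some genes of the list had no counts, and those given here are named after their values were seen. Hamp, which encodes the iron hormone hepcidin, Trf, which encodes transferrin, and Bmp6 were at 0 counts in all 8 MS-5 libraries. A count of 0 allows up to 3 counts, or 0.297 CPM in the shallowest library of cells alone and 0.102 CPM in the shallowest Adh library, for counting error only. Alas2, the erythroid form of the first heme enzyme, was at a mean of 0.281 CPM alone and 0.220 CPM in coculture.

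**Figure D4:**
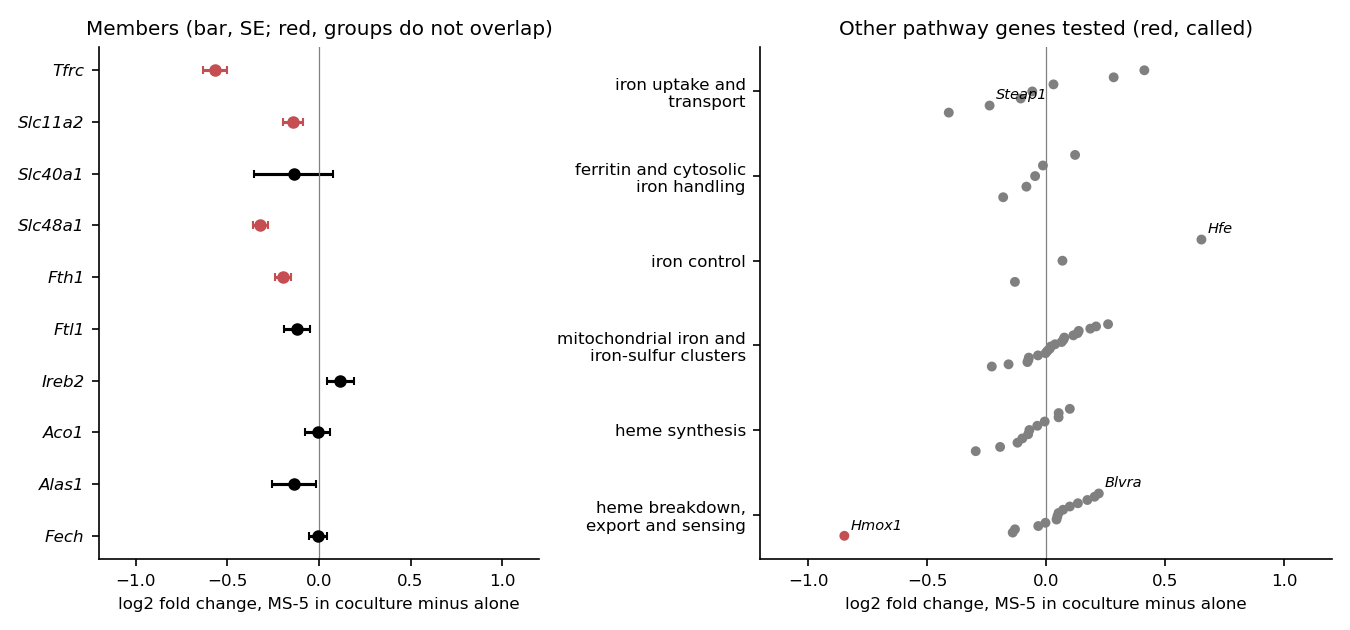
Left, log2 fold change of the 10 members in MS-5 cells in coculture minus alone, with SE as bars and red for genes whose groups do not overlap. Right, the same difference for the 60 other iron and heme genes tested, by group, with red for the 1 gene called. Tfrc stood lowest among the members at −0.57, and Hmox1 lowest among the other genes at −0.85.

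The human counterparts of the 10 genes in REC-1 cells were not used to choose the members either, and they addressed whether the lymphoma cells of the same cultures differed in the same genes. The library Susp replicate 2 stood apart for several of these genes, and comparisons of Susp cells are given over all 12 libraries and, for TFRC, FTL, FECH, IREB2, SLC48A1 and FTH1, also over the 11 without it. Of the 10 counterparts, 9 were tested among 12861 human genes. SLC40A1 had 0 counts in all 12 libraries, which allows at most 0.387 CPM in the shallowest library, whereas the mouse Slc40a1 had 446 to 984 counts in the same Adh libraries.

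None of the 9 was called by edgeR in any of the 3 REC-1 comparisons. At an unadjusted p below 0.05 there were 0 between Adh and Susp cells, 1 between Susp and Sep cells and 2 between Adh and Sep cells, and DESeq2 called 0 in each comparison, with the same 0, 1 and 2 below 0.05. In edgeR these were 0%, 11.1% and 22.2% of the 9, beside 18%, 16.7% and 20.2% of all genes tested. Of all genes tested, 0.778% were called between Adh and Susp cells, 0.731% between Susp and Sep cells and 2.4% between Adh and Sep cells. The median log2 fold changes of the 9 genes were 0.06, 0.08 and 0.07, beside −0.00507, −0.00593 and −0.00340 over all genes tested. Without Susp replicate 2 the medians of the 9 genes were 0.05, 0.05 and 0.07, and 0, 1 and 2 genes were below 0.05. In that setting these were again 0%, 11.1% and 22.2% of the 9, beside 18%, 11.2% and 26.8% of all genes tested. Each pair of these comparisons shares the libraries of a group.

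TFRC was at 495, 447, 443 and 434 CPM in Sep replicates 1 to 4, at 464, 299, 453 and 442 CPM in Susp replicates 1 to 4 and at 498, 446, 493 and 470 CPM in Adh replicates 1 to 4. The groups overlapped, and only Susp replicate 2 lay far below the rest. The log2 fold change between Adh and Sep cells was 0.07 (SE 0.11, edgeR adjusted p = 0.780), and that between Adh and Susp cells was 0.20 (SE 0.11, edgeR adjusted p = 0.351), or 0.09 (SE 0.07, edgeR adjusted p = 0.502) without Susp replicate 2. In the Adh libraries, human TFRC held 38.1% to 52.8% of the counts that both species gave to this gene. The difference between the change of Tfrc in MS-5 cells and that of TFRC in REC-1 cells was not tested.

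FTL was at 511 to 540 CPM in Sep cells, with a mean of 527 ± 12.2 CPM (SD, n = 4). It was at 587, 820, 636 and 606 CPM in Susp replicates 1 to 4 and at 617, 616, 590 and 659 CPM in Adh replicates 1 to 4. Every library of both coculture groups was above every Sep library. The share of all human genes whose groups do not overlap was not computed, so this separation, like that of FECH below, cannot be weighed. Relative to Sep cells, Susp cells had an FTL log2 fold change of 0.33 with an SE of 0.09 (edgeR adjusted p = 0.113), and Adh cells one of 0.24 with an SE of 0.09 (edgeR adjusted p = 0.170), both short of the threshold. Without Susp replicate 2 these were 0.20 (SE 0.05, edgeR adjusted p = 0.101) and 0.24 (SE 0.05, edgeR adjusted p = 0.00718), the second of which passed on its p but not on its fold. That library belongs to neither the Adh nor the Sep group. Without it, 1555 of all 13084 human genes tested passed on the adjusted p alone between Adh and Sep cells, against 438 of 12861 with it. The pass of FTL is therefore not read as a result of its own. Between Susp and Sep cells, FTL also passed on its p but not on its fold under some alternatives. These were DESeq2 (adjusted p = 0.0461) and edgeR with no low-count filter (adjusted p = 0.0342). Under the other alternatives its adjusted p between Susp and Sep cells stayed above 0.05. Between Adh and Sep cells, 1 of the 9 counterparts passed on its edgeR adjusted p alone with replicate 2 left out of every group. So did 571 of all 12942 genes tested in that setting.

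FECH in Adh cells, at 74.6 to 76.9 CPM, did not overlap with Sep cells, at 63.0 to 71.5 CPM, or with Susp cells, at 69.7 to 72.5 CPM. The log2 fold change was 0.19 (SE 0.08, edgeR adjusted p = 0.190) against Sep cells and 0.10 (SE 0.08, edgeR adjusted p = 0.474) against Susp cells, or 0.13 (SE 0.07, edgeR adjusted p = 0.342) against Susp cells without Susp replicate 2. IREB2 was at 90.7 to 98.4 CPM in Susp replicates 1, 3 and 4 and at 51.0 CPM in Susp replicate 2, beside 89.8 to 116 CPM in Sep cells and 96.0 to 111 CPM in Adh cells. Between Adh and Susp cells its log2 fold change was 0.31 (SE 0.16, edgeR adjusted p = 0.325), and 0.14 (SE 0.09, edgeR adjusted p = 0.440) without Susp replicate 2. ACO1, ALAS1 and SLC11A2 stayed within log2 fold changes of −0.17 and 0.13 in the 3 comparisons.

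FTH1 and SLC48A1 were low in the human counts. FTH1 had 145 to 831 counts per library, between 10.2 and 51.1 CPM, and in each group replicate 1 was the lowest. Its counts are uncertain, since the genome holds many processed copies of FTH1 and only fragments that mapped once were counted. The 25 annotated FTH1 pseudogenes together held 2 to 28 counts per library. SLC48A1 was at 5.65 to 14.01 CPM, and between Adh and Susp cells its log2 fold change was −0.29 (SE 0.21, edgeR adjusted p = 0.462), or −0.21 (SE 0.22, edgeR adjusted p = 0.649) without Susp replicate 2. For FTH1 the same difference was −0.60 (SE 0.43, edgeR adjusted p = 0.462), and −0.31 (SE 0.42, edgeR adjusted p = 0.740) without that library.

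**Figure D5:**
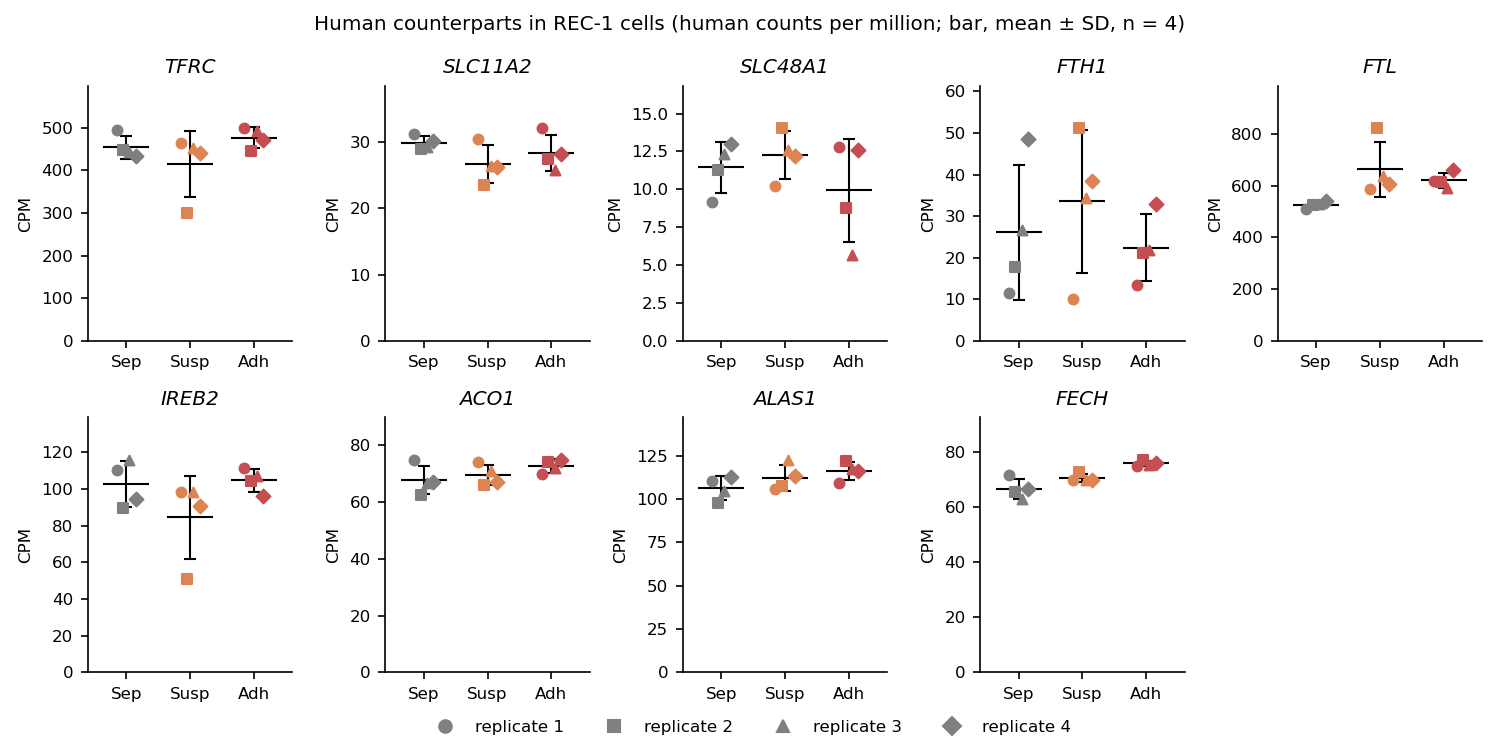
CPM of 9 human counterparts in REC-1 libraries (y axes from 0), in Sep (grey), Susp (orange) and Adh cells (red), with the mean ± SD over 4 libraries and the replicate number as the point shape. FTL was above the Sep libraries in all 8 coculture libraries, and Susp replicate 2 lay below the other Susp libraries for TFRC and IREB2.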

How the data were processed

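Gene counts of 12 REC-1 libraries and of MS-5 cells in 8 libraries (4 alone, 4 Adh) were used. The authors separated read pairs by species with Xenome, aligned them to GRCh38 or GRCm38 with STAR 2.5.1b, keeping fragments that mapped once, and deposited whole-number counts per gene from featureCounts (Subread 1.5.2), neither normalized nor filtered. Whether counting used strand is not given in the sources used here. The other 20 columns of the count tables were not used.

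In R 4.3.3, each species' counts were fitted in 1 edgeR 4.0.16 model (filterByExpr, TMM, quasi-likelihood test in the legacy form, Benjamini-Hochberg adjustment over all genes tested), and the code was tested on simulated data. A gene was called where it differed by at least 1.5-fold at an adjusted p of no more than 0.05, the thresholds of the study's methods. SE is that of the log2 fold change. Positions, exon lengths and UTRs came from GENCODE M21 (mouse) and release 44 (human). Depth per library was 10097555 to 34615602 mouse counts and 7758979 to 21467832 human counts. Counting error weighs most on genes of a few CPM or less, such as SLC48A1 with 44 counts (5.65 CPM) in Adh replicate 3.

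The members and all lists were chosen with earlier results of these data known. The genes named were the 10 members, their human counterparts, 5 fixed genes of heme breakdown and export (Hmox1, Hmox2, Blvra, Blvrb, Flvcr1), pathway genes called in MS-5 cells with a mean of at least 1 CPM, the 3 genes most like Tfrc and the ferritin pseudogenes as a set. Alternatives were the replicate number as a block, DESeq2 1.42.0, other scalings and filters, thinning, no fold minimum, each replicate left out, and the 11 REC-1 libraries without Susp replicate 2.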

Additional observations from a re-analysis of the deposited data

Results flagged for a closer look

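Among 47 sets of 4 libraries of 1 gene and 1 group, 4 held a library far from the other 3 by Dixon's criterion, and chance gives about 1 in 20. Of these, 3 were in Susp replicate 2. TFRC was at 299 CPM there and at 442 to 464 CPM in the other Susp libraries. IREB2 was at 51.0 CPM there and at 90.7 to 98.4 CPM in the others. FECH was at 72.5 CPM there, and the others lay so close together, all at 69.7 CPM, that a small gap met the criterion. In MS-5 cells, Alas1 was at 26.8 CPM in coculture replicate 1 and at 35.6 to 37.3 CPM in the other coculture libraries, and replicate 1 was also the lowest of the cells alone, at 29.5 CPM.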

How the results depend on the processing

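The median log2 fold change of the 10 members was −0.14, and with each replicate left out in turn it lay between −0.17 and −0.10, while with the replicate block it was −0.13. Hmox1 was the 1 other iron or heme gene called under every alternative run, with log2 fold changes from −0.89 to −0.79. The count of genes called in MS-5 cells was 25 and became 45 with the replicate block, 38 with DESeq2, 45 with no low-count filter and 94 with no fold minimum, and it lay between 7 (without replicate 3) and 27 (without replicate 1) with a replicate left out. The cause was not tested. Human counterparts called numbered 0 under every alternative, replicate block included, with 1 exception: with no low-count filter, FTH1 was called lower in Adh than in Susp cells (log2 fold change −0.61, edgeR adjusted p = 0.00250), against adjusted p = 0.462 with the filter. The FTH1 log2 fold change was −0.60 with the filter, and its SE was 0.43 with the filter and 0.14 without it. Its libraries overlapped between Adh and Susp cells. With no low-count filter, 341 of all 28363 genes tested were called between these groups, against 100 of 12861 with it. With the filter, the FTH1 log2 fold change was −0.31 without Susp replicate 2 and −0.29 without replicate 2.

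Across alternatives Tfrc stayed between −0.59 and −0.53, Slc48a1 between −0.33 and −0.31, Slc11a2 between −0.18 and −0.12 and Fth1 between −0.24 and −0.17 on the log2 scale. Members with small differences moved by more than 1.5 times, with Slc40a1 between −0.24 and −0.06, Alas1 between −0.19 and −0.08, Ftl1 between −0.17 and −0.07 and Ireb2 between 0.07 and 0.18, and Aco1 and Fech changed sign. Same-numbered libraries deviated together from their group means (r above 0.1) for 3 of 4 numbers in MS-5 cells. There r was 0.45, 0.14, −0.0002 and 0.30 for replicates 1 to 4. REC-1 libraries did so for 3 of 4 numbers with Adh set against Sep (r of 0.51, 0.23, 0.03 and 0.35). They did so for 1 of 4 in each comparison that involved Susp cells. The labels do not say what the number marks. The main fits left the number out, so their p-values are unpaired although these values leave pairing possible. With the block, MS-5 genes that passed on the edgeR adjusted p alone went from 94 to 435. Under the block the SE of Slc40a1 was 0.10 in place of 0.22. Genes of a few CPM are limited by depth, and 4 libraries a group limit the rest.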
